A study of Mus musculus with 2 samples.

Results

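Organic anion and cation transporters carry drugs, uremic solutes, urate and steroid conjugates across the membranes of the kidney's proximal tubule. The 8 genes described here are Slc22a2, Slc22a6, Slc22a8, Slc22a12, Slc22a30, Slco1a1, Slco1a6 and Slc47a1, a named list of 8 of the 32285 genes in the count tables. They were followed in droplet-based single-cell 3′-end RNA libraries of whole mouse kidney, made 14 days after ischemia-reperfusion injury. The injury came from clamping 1 renal artery, and it was followed by 4 injections of tamoxifen, in both groups. The control library came from Cre- mice. The other library, labelled endothelial PHD3 haplodeficient, came from mice of the genotype Cdh5-CreERT2; Phd3f/+, in which a tamoxifen-inducible Cre driven by the endothelial Cdh5 promoter acts on 1 floxed allele of the prolyl hydroxylase PHD3. The labels used here give neither the number, age and sex of the animals behind a library, nor whether the Cre- mice carried the floxed allele. Each group is a single library. Differences between the libraries therefore have no replicate check, no test was made, and every interval below is an exact 95% interval that covers counting error only.

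Uptake and release of organic ions by the proximal tubule is a division of labour between its membranes. On the blood side, the organic anion transporters OAT1 (Slc22a6) and OAT3 (Slc22a8) and the organic cation transporter OCT2 (Slc22a2) take up drugs and waste solutes. On the urine side, MATE1 (Slc47a1) exchanges organic cations for protons and releases them, and URAT1 (Slc22a12) takes urate back up. Slco1a1 and Slco1a6 encode organic anion transporting polypeptides of rodents, and Slc22a30 is a rodent member of the organic anion transporter branch. Slc5a12, a lactate transporter of the early proximal tubule, and Slc7a13, an amino acid transporter of its late straight segment, were used to mark segments. Havcr1, which encodes kidney injury molecule 1, was used to mark injured tubule cells.

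The stretches just before the transcription start were read for 7 of the 8 genes from RefSeq on GRCm38.p6, as windows of 250 bases. They were searched on both strands for GTTAAT, the repeated unit of the palindrome bound by HNF1 factors, and for CAAAGTNCA, a site of the nuclear receptor HNF4. GTTAAT was in 2113 of 32851 windows of all genes (6.43%), and CAAAGTNCA was in 392 of them (1.19%). Capitals mark a match. The first lines show the windows of Slc22a6 and Slco1a1, whose levels differed most between the segments in the control library, and which overlap no annotated exon. They are followed by the 30 bases around the matches of Slc22a8, the gene that differed most between the libraries, and of Slco1a6.
Slc22a6, chr19:8617746-8617995, plus strand: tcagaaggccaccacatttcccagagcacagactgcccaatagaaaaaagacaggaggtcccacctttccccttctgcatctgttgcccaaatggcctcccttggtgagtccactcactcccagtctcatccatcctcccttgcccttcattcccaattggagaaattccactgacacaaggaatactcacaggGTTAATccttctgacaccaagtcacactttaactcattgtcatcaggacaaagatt
Slco1a1, chr6:141946963-141947212, minus strand: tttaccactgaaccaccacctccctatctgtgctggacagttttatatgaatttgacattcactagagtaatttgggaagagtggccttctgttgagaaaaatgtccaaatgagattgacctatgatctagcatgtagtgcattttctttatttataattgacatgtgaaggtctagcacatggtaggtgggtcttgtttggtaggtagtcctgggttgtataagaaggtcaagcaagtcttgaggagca
Slc22a8, chr19:8593089-8593118, plus strand: cccctgccggatGTTAATcttccaaagaaa
Slco1a6, chr6:142186216-142186245, minus strand: ggccaggaatCAAAGTTCAatctagcttag
The match of Slc22a6 began 56 bases before the start, that of Slc22a8 81 bases before it and that of Slco1a6 86 bases before it. Slco1a1 held neither motif in its window, and nor did Slc22a2, Slc22a12 and Slc22a30. A match describes letters only, and no binding was measured.

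Much of the list lies on chromosome 19 of GRCm38 in the GENCODE M21 annotation. Slc22a8 (chr19:8591254-8611835, plus strand) and Slc22a6 (chr19:8618039-8628299, plus strand) are neighbours with 6203 bases between them. Slc22a30 (chr19:8335371-8405111, minus strand) and Slc22a12 (chr19:6535845-6543032, minus strand) lie on the same chromosome. Slco1a1 (chr6:141907282-141946962) and Slco1a6 (chr6:142085761-142208521) lie 138798 bases apart, both on the minus strand. Slc22a2 is at chr17:12584132-12628488 on the plus strand and Slc47a1 at chr11:61343401-61378345 on the minus strand. The RefSeq starts of Slc22a8 and Slco1a6 used for their windows fall inside the longer GENCODE models of these genes. All 250 bases of the Slc22a8 window overlap annotated exons of Slc22a8. In the last 500 bases of its transcripts, where 3′-end reads fall, Slco1a6 shared 68 of 1602 stretches of 90 bases (4.24%) with Gm6614, Slco1a1, Slco1a4 or Slco1a5, so a small part of its counts is uncertain. The other 7 genes shared none.

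The control library kept 9452 barcodes and the library labelled haplodeficient 10026, with 120508872 and 108503965 unique molecular identifiers (UMIs, each a counted RNA molecule). Median depth was 9160 UMIs per barcode in the control library and 5861.5 in the other, and the median share of UMIs from mitochondrial (mt-) genes was 10.2% and 2.72%. The libraries shared 28 barcodes, 0.296% and 0.279% of those kept. Egln3, which encodes PHD3, was at 18.5 CPM (counts scaled to a library total of 1000000 UMIs, 13.7 to 24.4) in 330 endothelial-like barcodes of the control library. It was at 19.2 CPM (16.1 to 22.9) in 770 endothelial-like barcodes of the library labelled haplodeficient, so the level was not lower there. Counts come from the 3′ end, and the labels do not say which exon is floxed, so this level does not check the genotype.

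Barcodes were gated on 2 or more UMIs of each marker gene. The Slc5a12 gate (Slc5a12 without Slc7a13 or Havcr1) held 1733 control barcodes and 270 of the library labelled haplodeficient, with median depths of 14184 and 10440.5 UMIs. The Slc7a13 gate held 594 and 12 barcodes, the gate of Slc5a12 with Havcr1 226 and 87, that of Slc7a13 with Havcr1 84 and 13, and that of Havcr1 alone 441 and 226. All 14 proximal tubule markers were detected in the Slc5a12 gate of both libraries, where their levels summed to 17085 and 12863 CPM. Of the gate's barcodes, 94.7% and 87.8% lay in clusters that were proximal-tubule-like by their markers. The Havcr1-alone gate was more mixed: 63.5% and 43.8% of its barcodes were in proximal-tubule-like clusters, and 16.8% and 33.6% in descending-thin-limb-like ones. A gene was said to rise or fall when its log2 ratio, after adding 5 CPM to both values, was at least 1 in size and the Poisson intervals did not overlap. Only genes with 30 or more UMIs and an average of 50 CPM or more over both values were eligible.

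In the control library most of the transporters differed in level between the Slc5a12 and Slc7a13 gates. Compared with the Slc5a12 gate, 6 of the 8 genes were higher in the Slc7a13 gate, beside 5% of all eligible genes. Slco1a1 differed most, and Slc22a8 was the 1 gene of the list with a lower value there.

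Of the blood-side uptake genes, Slc22a6, which encodes OAT1, was at 165 CPM (160 to 170) in the Slc5a12 gate and 873 CPM (854 to 893) in the Slc7a13 gate, 5.31 times as high (5.11 to 5.51). Slc22a2, which encodes OCT2, was at 73.3 CPM and 287 CPM, 3.92 times as high (3.70 to 4.16). Slc22a8, which encodes OAT3, ran the other way, at 317 CPM (311 to 324) in the Slc5a12 gate and 161 CPM (153 to 170) in the Slc7a13 gate. Its ratio was 0.508 (0.480 to 0.538), a log2 ratio of -0.95 that missed the size rule although the intervals did not overlap. The neighbouring OAT1 and OAT3 genes therefore had opposite orders between the Slc5a12 and Slc7a13 gates in this library. Proximal-tubule-like barcodes that no gate took held both genes, as given below, so the order is not shown for the whole tubule. After thinning each barcode to 1000 UMIs, Slc22a6 was found in 55.6% of Slc7a13-gated barcodes (51.5% to 59.6%) and 15.3% of Slc5a12-gated ones (13.6% to 17.1%). Slc22a8 was found in 14.3% (11.6% to 17.4%) and 26.2% (24.2% to 28.4%). In leukocyte-like barcodes, which should lack both genes and had a median of 4419.5 UMIs before thinning, the shares were 0.41% and 0.65%.

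Slco1a1 was close to absent from the early segment. It was at 354 CPM (342 to 367, from 3121 UMIs) in the Slc7a13 gate and at 1.76 CPM (1.29 to 2.34, from 47 UMIs) in the Slc5a12 gate, 202 times as high (151 to 275). Of the 47 UMIs in the Slc5a12 gate, 44.7% came from 10 barcodes. Its neighbour Slco1a6 was present in both, at 347 CPM and 97.9 CPM, 3.55 times as high in the Slc7a13 gate (3.37 to 3.74). Slc22a30 was at 243 CPM and 64.9 CPM, 3.74 times as high (3.51 to 3.99). On the urine side, Slc22a12, the urate transporter URAT1, was at 393 CPM and 167 CPM, 2.35 times as high (2.25 to 2.46). Slc47a1, the cation exporter MATE1, was at 279 CPM and 206 CPM, 1.35 times as high (1.29 to 1.42), which missed the size rule. Free RNA, read from barcodes of 1 to 100 UMIs, made up an estimated 19.0% of UMIs in the control Slc5a12 gate and 15.2% in the Slc7a13 gate. In the control library free RNA held Slc22a6 at 190 CPM, above its level in the Slc5a12 gate, and Slc22a8 at 156 CPM.

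The library labelled haplodeficient had only 12 barcodes in the Slc7a13 gate, and 7 of the 8 genes were higher there than in its Slc5a12 gate, beside 6.15% of all eligible genes. Slc22a6 was at 900 CPM (762 to 1056) and 119 CPM (109 to 131), 7.54 times as high (6.23 to 9.09). Slco1a1 was at 246 CPM (177 to 334) and 1.27 CPM (0.41 to 2.97, from 5 UMIs). Slc47a1 was at 486 CPM and 200 CPM, 2.43 times as high (1.91 to 3.06). Slc22a8 was at 84.0 CPM (45.9 to 141) and 78.9 CPM (70.3 to 88.1), and these intervals overlapped. The 12 barcodes give few molecules: 14 UMIs of Slc22a8 in all, 9 of them from 1 barcode.

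**Figure D1:**
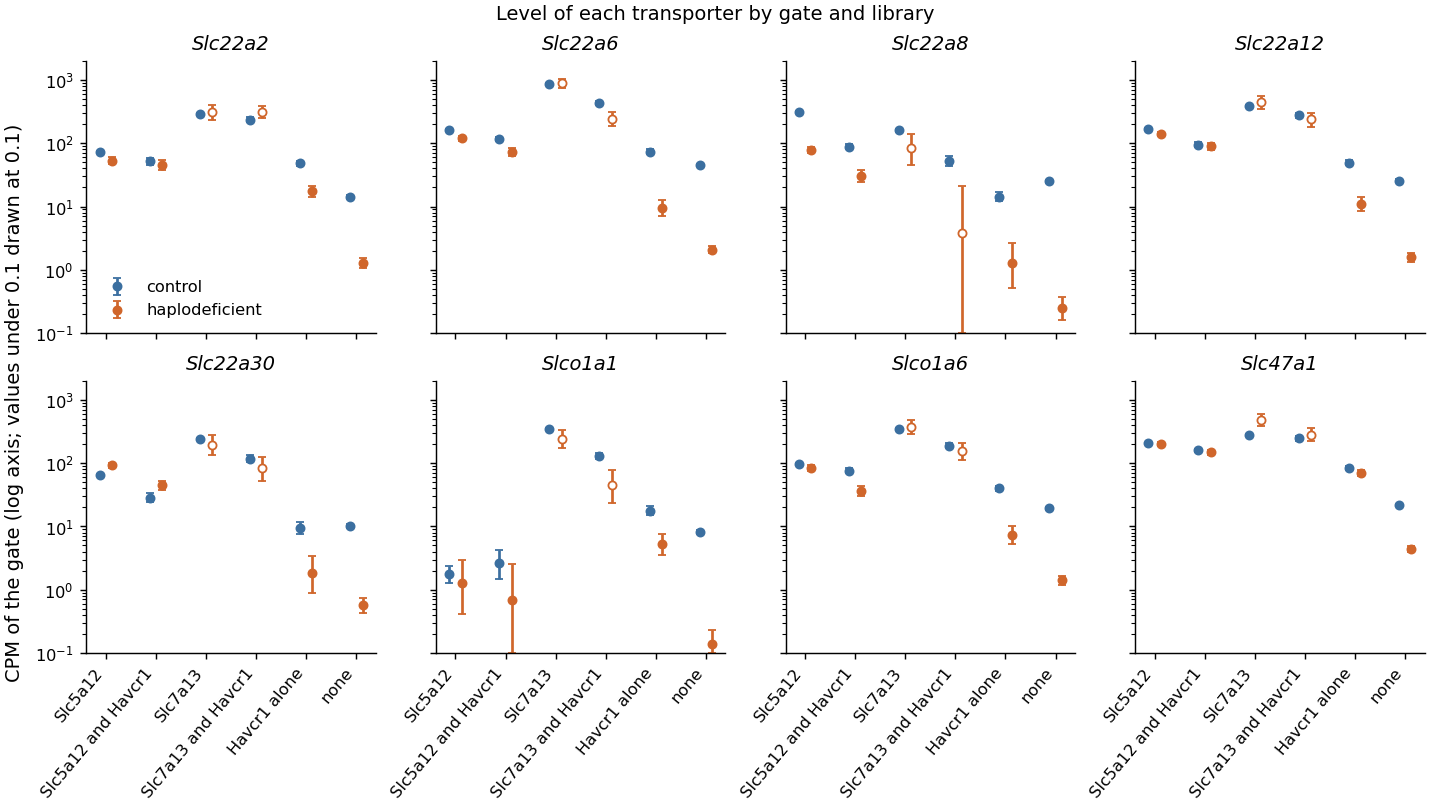
Level of each of the 8 genes (CPM, log axis) in 6 gates of both libraries, with exact 95% Poisson intervals as bars and open symbols for gates of fewer than 20 barcodes. All but Slc22a8 are highest in a gate with Slc7a13 in the control library, and Slc22a8 is highest in the Slc5a12 gate, at 317 CPM, in that library.

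Order across the 5 control gates named above was the same for much of the list. The 45 control barcodes with both Slc5a12 and Slc7a13 but not Havcr1 were left out of this order. They held Slc22a8 at 293 CPM (261 to 328), which overlapped the Slc5a12 gate. Slc22a6, Slc22a12, Slc22a30 and Slco1a6 all ran from the Slc7a13 gate through Slc7a13 with Havcr1, Slc5a12, and Slc5a12 with Havcr1 down to Havcr1 alone, with no overlap between neighbouring intervals. Slc22a2 kept this order too, but its lowest values, 51.6 CPM (46.1 to 57.6) with Slc5a12 and Havcr1 and 48.7 CPM (44.2 to 53.4) with Havcr1 alone, overlapped. Slc47a1 had the narrowest spread, from 279 CPM in the Slc7a13 gate to 85.3 CPM in the Havcr1-alone gate, and its values of 279 CPM (269 to 291) in the Slc7a13 gate and 249.1 CPM (228 to 271) with Slc7a13 and Havcr1 overlapped. Slc22a8 ran from the Slc5a12 gate at 317 CPM over the Slc7a13 gate at 161 CPM, Slc5a12 with Havcr1 at 88.4 CPM and Slc7a13 with Havcr1 at 52.6 CPM to Havcr1 alone at 14.4 CPM, all without overlap. Slco1a1 was lowest in the Slc5a12 gate and in that of Slc5a12 with Havcr1, at 2.62 CPM (1.5 to 4.26), where the intervals overlapped.

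Among early-segment barcodes that carried the injury marker, Slc22a8 fell and most of the other transporters moved less. In the control library 1 of 6 eligible genes of the list was lower with Havcr1 than without it, beside 1.63% of all eligible genes. Other tubule genes fell too: of 23 eligible genes of a list of tubule function, 7 were lower and 0 higher. Their median log2 ratio was -0.64, beside -0.47 for the 6 transporters. The 14 proximal tubule markers summed to 9346 CPM with Havcr1 and 17085 CPM without. Slc22a8 was at 88.4 CPM (81.1 to 96.2) with Havcr1 and 317 CPM without, a ratio of 0.279 (0.255 to 0.304). Slc22a12 had a ratio of 0.568 (0.520 to 0.620), Slc22a2 of 0.704 (0.623 to 0.793), Slc22a6 of 0.715 (0.660 to 0.773), Slc47a1 of 0.776 (0.724 to 0.831) and Slco1a6 of 0.783 (0.708 to 0.864), all short of the size rule. Slc22a30, under the level needed for eligibility, was at 28.7 CPM and 64.9 CPM, a ratio of 0.442 (0.376 to 0.516). In the library labelled haplodeficient 2 of 6 eligible genes were lower, beside 1.41% of all eligible genes. These were Slc22a8, at 30.9 CPM and 78.9 CPM (ratio 0.392, 0.306 to 0.498), and Slco1a6, at 36.5 CPM and 83.4 CPM (ratio 0.437, 0.348 to 0.546). Slc22a30, Slc22a6, Slc22a12 and Slc47a1 had ratios of 0.485, 0.617, 0.639 and 0.747 there and did not pass.

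In the control library mitochondrial share moved with Havcr1, with a median of 23.0% in the Slc5a12 gate and 11.1% with Havcr1. Among control barcodes of up to 10% mt- UMIs, Slc22a8 was at 17.7 CPM (13.1 to 23.3) with Havcr1 and 116 CPM (104 to 129) without, a ratio of 0.152 (0.111 to 0.205). Among those over 10% it was at 150 CPM (137 to 163) and 342 CPM (335 to 350), a ratio of 0.437 (0.398 to 0.479). Slc22a8 was lower with Havcr1 in both ranges. Slc22a6 and Slco1a6 were not: up to 10% their ratios were 0.397 (0.308 to 0.509) and 0.393 (0.308 to 0.499), and over 10% they were 1.10 (1.01 to 1.19) and 1.14 (1.02 to 1.27). Slc47a1 had ratios of 0.707 (0.619 to 0.808) and 0.881 (0.808 to 0.959). In the library labelled haplodeficient the median mt- share was 6.56% in the Slc5a12 gate and 6.47% with Havcr1. There Slco1a6 passed the size rule in both ranges and Slc22a8 in neither. A gene can miss the rule by its level as well as by its ratio.

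Late-segment barcodes with the injury marker were compared in the control library. In the Slc7a13 gate 4 of 8 genes were lower with Havcr1 than without it, beside 0.878% of all eligible genes. Of 20 eligible genes of the tubule function list 3 were lower and 1 was higher. Slc22a8 fell from 161 CPM to 52.6 CPM (43.3 to 63.3), a ratio of 0.326 (0.267 to 0.396). Slco1a1 fell from 354 CPM to 130 CPM (115 to 146), a ratio of 0.368 (0.324 to 0.416). Slc22a30 and Slc22a6 had ratios of 0.487 (0.426 to 0.556) and 0.497 (0.463 to 0.532). Slco1a6 at 0.545 (0.490 to 0.605), Slc22a12 at 0.705, Slc22a2 at 0.826 and Slc47a1 at 0.891 did not pass. The cation transporters of the list, Slc22a2 and Slc47a1, thus had the ratios nearest to 1 in this gate. The median mt- share was 19.8% without Havcr1 and 11.9% with it, and the 6 descending thin limb markers, all detected, summed to 474 and 1471 CPM. Their part in these differences was not tested.

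The same was read in steps of Havcr1, after thinning every barcode to 5000 UMIs, which left out 57 control barcodes with Slc7a13 and 199 with Slc5a12 for lower depth. In control Slc7a13-positive barcodes Slc22a6 was at 850 CPM with 0 Havcr1 UMIs (547 barcodes), 541 CPM with 1 (41 barcodes), 155 CPM with 2 to 3 (22 barcodes) and 18.2 CPM with 4 or more (11 barcodes). Slco1a1 was at 344, 176, 18.2 and 18.2 CPM in these steps, and Slc22a8 at 167, 73.2, 9.09 and 0 CPM. The last step is thin, with 1 UMI of Slc22a6, 1 of Slco1a1 and 0 of Slc22a8, and the Poisson interval of Slc22a8 there reached 67.1 CPM. Slc22a2, the OCT2 gene, was at 278, 254, 282 and 273 CPM, with intervals that all overlapped. Slc47a1 was at 278, 259, 318 and 164 CPM, with overlapping intervals as well. The median mt- share was 18.8% in the first of these steps and 6.66% in the last, and its part was not tested. The OAT1 gene thus went down step by step with no overlap over the first 3 steps in these barcodes, while the OCT2 gene showed no such steps. The last 2 steps of Slc22a2 rest on 31 and 15 UMIs. Over full counts Slc22a2 was somewhat lower with Havcr1, at 237 CPM (217 to 259) against 287 CPM (276 to 299) in the Slc7a13 gate. Tubule genes outside the list differed among themselves. Slc34a1, a phosphate transporter of the proximal tubule, went down as well, at 2406, 1780, 655 and 90.9 CPM. Lrp2 went down less, at 1370, 1244, 891 and 600 CPM. Cubn was at 240, 224, 173 and 236 CPM, with intervals that all overlapped.

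In control Slc5a12-positive barcodes, Slc22a8 was at 342 CPM (329 to 355, 1558 barcodes) without Havcr1 UMIs and at 110 CPM (81.7 to 144, 93 barcodes) with 1. It was at 54.2 CPM (28.8 to 92.6) with 2 to 3 Havcr1 UMIs and 65.6 CPM (40.1 to 101) with 4 or more, which overlapped. Slc47a1 was at 218, 163, 175 and 102 CPM and Slc22a6 at 190, 142, 133 and 59.0 CPM over these steps. Slc22a2 was at 76.8, 68.8, 58.3 and 45.9 CPM, lower at each step but with intervals that all overlapped. Slc34a1 was at 3460 CPM in the first step and 820 CPM in the last, Lrp2 at 1186 and 469 CPM and Cubn at 275 and 108 CPM. The median mt- share was 22.4% in the first step and 6.40% in the last, and its part in these steps was not tested beyond the split given above.

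**Figure D2:**
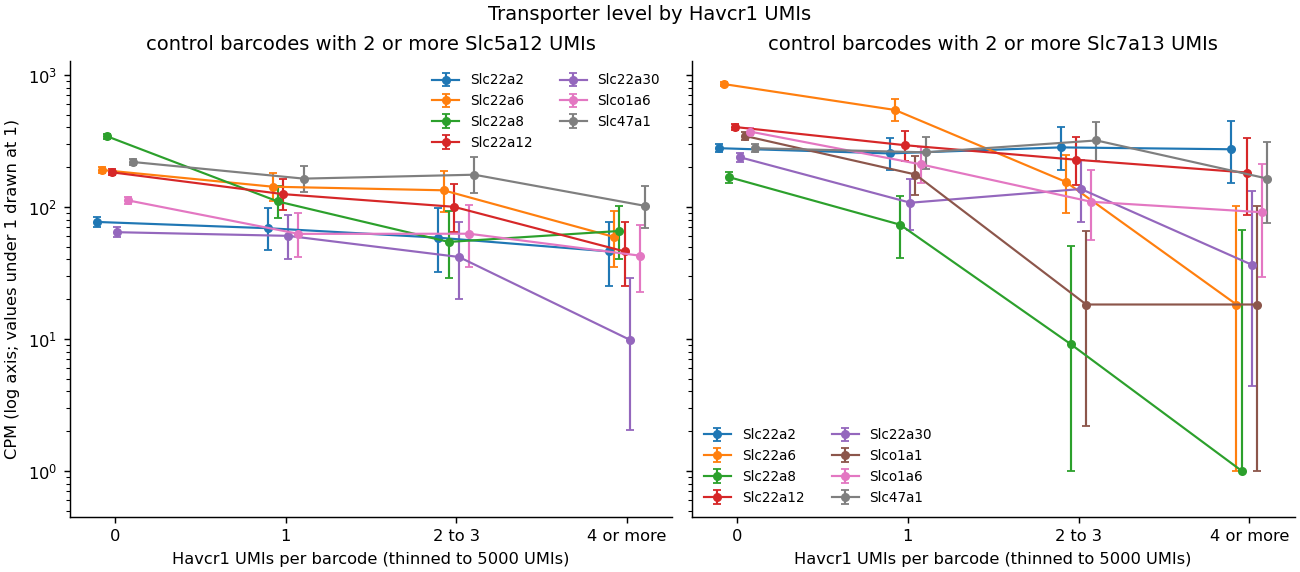
Level of the transporters (CPM, log axis, thinned counts) by Havcr1 UMIs per barcode in control barcodes with Slc5a12 (left) or Slc7a13 (right), with exact 95% Poisson intervals as bars. Slc22a8 is lower from the first Havcr1 UMI on in both panels, while Slc22a2 stays between 254 and 282 CPM in the right panel.

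Barcodes with Havcr1 but neither segment marker had low levels of most of the list. In the control library 5 of 6 eligible genes were lower than in the Slc5a12 gate, beside 9.39% of all eligible genes. Of 23 eligible genes of the tubule function list 19 were lower and 1, Napsa, was higher. The 14 proximal tubule markers summed to 2766 CPM with Havcr1 alone and 17085 CPM in the Slc5a12 gate. Slc22a8 was at 14.4 CPM (12.0 to 17.1), a ratio of 0.045 (0.038 to 0.054). Slc22a12 had a ratio of 0.296, Slco1a6 of 0.408, Slc47a1 of 0.414 and Slc22a6 of 0.450, and Slc22a2, at 0.664 (0.598 to 0.737), did not pass. Restricted to proximal-tubule-like clusters, or to barcodes over 10% mt- UMIs, the count was 1, Slc22a8. Over 10%, Slc22a6 was at 242 CPM (221 to 265) with Havcr1 alone and 175 CPM (170 to 180) in the Slc5a12 gate, so its direction turned. Slc22a2 turned as well, at 123 CPM (108 to 139) and 78.6 CPM (75.1 to 82.3), a ratio of 1.56 (1.36 to 1.79). Free RNA made up an estimated 29.2% of UMIs in this gate. In the library labelled haplodeficient all 3 eligible genes were lower, beside 10.4% of all eligible genes: Slc22a6 at 9.58 CPM, Slc22a12 at 11.1 CPM and Slc47a1 at 70.9 CPM. The Slc47a1 ratio was 0.355 (0.313 to 0.401) and that of Slc22a6 was 0.080 (0.059 to 0.107). Thin limb cells were part of this gate, at 74 control barcodes and 76 of the other library.

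Between the libraries, Slc22a8 was the gene of the list that fell in the early segment. In the Slc5a12 gate 1 of 7 eligible genes of the list was lower in the library labelled haplodeficient, beside 1.1% of all eligible genes. The list's median log2 ratio was -0.25, beside 0.21 for all eligible genes. Slc22a8 was at 317 CPM (311 to 324, 8491 UMIs) in the control library and 78.9 CPM (70.3 to 88.1, 310 UMIs) in the other, a ratio of 0.248 (0.221 to 0.278) and a log2 ratio of -1.94. It was not alone among tubule genes: of 23 eligible genes of a list of tubule function, 4 were lower in this comparison (Slc6a19, Pck1, Gsta2 and Cyp4b1) and 1 was higher (Napsa), with a median log2 ratio of -0.47. After thinning to 1000 UMIs it was found in 26.2% of control barcodes (24.2% to 28.4%) and 8.89% of the others (5.78% to 12.9%). After the same thinning it was found in 0.65% and 0.00% of leukocyte-like barcodes, whose median depths before thinning were 4419.5 and 3460 UMIs. Without thinning the shares in the Slc5a12 gate were 82.5% and 38.1%.

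The other blood-side genes differed less. Slc22a6 was at 165 CPM and 119 CPM, a ratio of 0.725 (0.658 to 0.798), and Slc22a2 was at 73.3 CPM and 53.4 CPM, a ratio of 0.729 (0.629 to 0.841). On the urine side Slc22a12 was at 167 CPM and 140 CPM (ratio 0.838, 0.766 to 0.916). Slc47a1 was at 206 CPM and 200 CPM, a ratio of 0.969 (0.898 to 1.05) whose interval holds 1. Slco1a6 was at 97.9 CPM and 83.4 CPM (ratio 0.852, 0.757 to 0.956). Slc22a30 was the 1 gene of the list with a higher value in the library labelled haplodeficient, at 64.9 CPM and 92.3 CPM (ratio 1.42, 1.27 to 1.59), short of the size rule. Slco1a1 had 47 and 5 UMIs in this gate and was not eligible.

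Several measures differed between the libraries in the same gate. The median mt- share was 23.0% in the control library and 6.56% in the other, and the free RNA share was 19.0% and 12.9%. Likely doublets made up 9.69% and 13.7% of the gate. The summed level of the 6 neutrophil markers was 1.4 CPM (5 of 6 detected) and 103.8 CPM (6 detected), and that of the 7 T cell markers 3.0 and 31.0 CPM. The sums for macrophages were 48.1 and 159 CPM, for pericytes or smooth muscle 35.8 and 158 CPM, for the descending thin limb 262 and 509 CPM, and for the proximal tubule 17085 and 12863 CPM. Of the injury genes listed, 9 of 13 eligible ones were higher in the library labelled haplodeficient, among them Krt8, Krt18, Lcn2, Clu and Vim, beside 2.37% of all eligible genes. Of 12 genes of the dissociation and stress response 4 were higher (Fosb, Jun, Jund and Atf3). Without likely doublets the Slc22a8 log2 ratio was -1.88, with free RNA subtracted it was -1.81, and within proximal-tubule-like clusters it was -1.88. The mt- share is taken up next, and the part of the injury and stress genes and of the other cells' markers in the Slc22a8 difference was not tested.

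Split by mt- share, the Slc22a8 difference was smaller but present in both ranges. Among barcodes of up to 10% (214 control and 185 others) it was at 116 CPM (104 to 129) and 50.1 CPM (41.8 to 59.5), a ratio of 0.431 (0.350 to 0.529). Among those over 10% (1519 and 85) it was at 342 CPM (335 to 350) and 135 CPM (116 to 156), a ratio of 0.393 (0.338 to 0.456). Within each library Slc22a8 was higher in the barcodes with the larger mt- share, and the libraries differ in how many of these they hold. Slc22a12 changed direction with the split: its ratio was 0.838 over the gate, 1.42 up to 10% and 1.22 over 10%. Slc22a2, at 0.729 over the gate, had ratios of 1.29 (0.964 to 1.74) and 1.03 (0.839 to 1.25), whose intervals hold 1. Slc22a6, at 0.725 over the gate, had a ratio of 1.2 up to 10% and of 0.936 over 10%. Slc22a30 at 1.41 and 1.5, Slc47a1 at 1.02 and 1.04 and Slco1a6 at 0.884 and 0.965 stayed near their values over the gate. With the gate split on Slc5a2, the glucose transporter of the early tubule, Slc22a8 had a ratio of 0.274 in barcodes with 2 or more Slc5a2 UMIs (1487 and 216) and 0.079 in those with fewer (246 and 54).

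**Figure D3:**
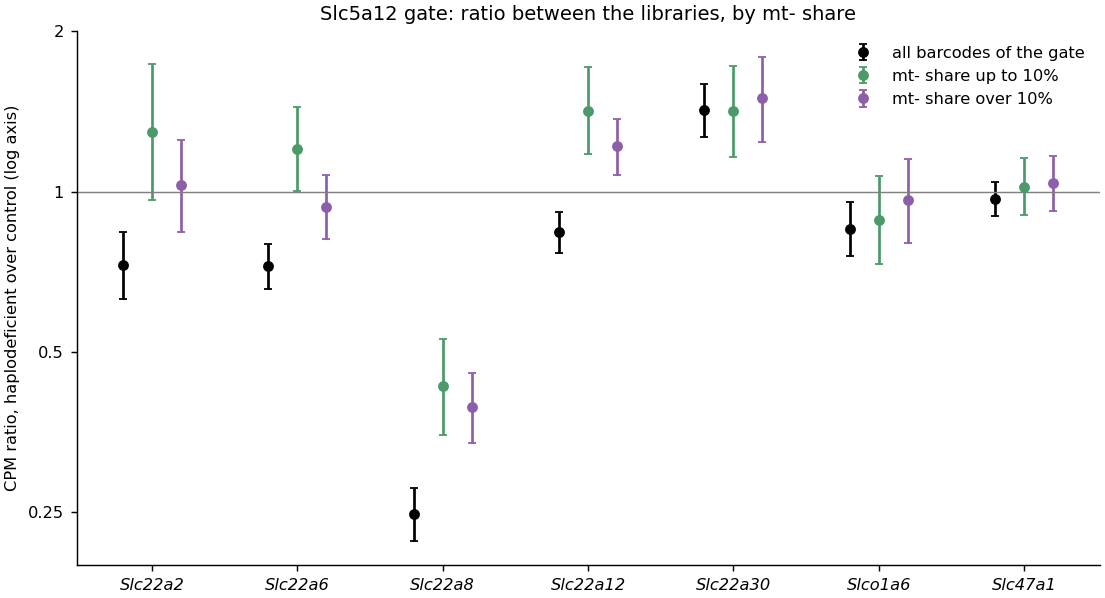
Ratio of CPM, library labelled haplodeficient over control (log axis), for the 7 eligible genes in the Slc5a12 gate, over all barcodes and split at an mt- share of 10%, with exact 95% intervals as bars. Slc22a8 lies at 0.248 over all barcodes and at 0.431 and 0.393 within the split, below every other gene in each series of points.

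At the edge of the gate, barcodes with exactly 2 Slc5a12 UMIs and neither other marker, just inside, had Slc22a8 at 343 CPM in the control library (163 barcodes) and 58.5 CPM in the other (38 barcodes). Barcodes with exactly 1, just outside, had it at 94.7 CPM (379 barcodes) and 10.9 CPM (93 barcodes). Slc22a8 was lower in the library labelled haplodeficient on both sides of the edge, but it was not alone. Just outside, all 8 genes had lower values there, and control free RNA held Slc22a8 at 156 CPM. Just inside, Slc22a30 and Slco1a6 had higher values there and the others lower. Among the lower were Slc22a6, at 295 CPM in the control library and 117 CPM in the other, and Slc22a2, at 91.0 and 33.1 CPM.

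In the Slc7a13 gate, with 594 and 12 barcodes, 0 of 8 eligible genes passed the size rule between the libraries, beside 1.83% of all eligible genes lower. Slc22a8 was at 161 CPM and 84.0 CPM, a ratio of 0.521 (0.284 to 0.876), and Slco1a1 was at 354 CPM and 246 CPM, a ratio of 0.695 (0.497 to 0.944). Slc47a1 was at 279 CPM and 486 CPM, a ratio of 1.74 (1.38 to 2.17). Slc22a6 was at 873 CPM and 900 CPM (ratio 1.03, 0.871 to 1.21), and Slc22a2 was at 287 CPM and 312 CPM (ratio 1.09, 0.808 to 1.43). The intervals of these last ratios hold 1. Over every barcode with Slc7a13, 731 and 28, 2 of 8 genes were lower, beside 1% of all eligible genes. Slc22a8 was at 152 CPM and 44.4 CPM (ratio 0.292, 0.183 to 0.443) and Slco1a1 at 288 CPM and 107 CPM (ratio 0.372, 0.278 to 0.488). Of these barcodes, 84 of 731 and 13 of 28 also carried Havcr1 without Slc5a12, so the injury marker moved with the library.

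Among barcodes with both Slc5a12 and Havcr1, 226 and 87, 1 of 5 eligible genes was lower in the library labelled haplodeficient, beside 0.295% of all eligible genes. Slc22a8 was at 88.4 CPM and 30.9 CPM, a ratio of 0.350 (0.276 to 0.438). Slco1a6 at 0.476 (0.381 to 0.589) and Slc22a6 at 0.626 (0.535 to 0.731) did not pass, nor did Slc22a12 at 0.943 and Slc47a1 at 0.933, whose intervals hold 1. Up to 10% mt- UMIs Slc22a8 was at 17.7 CPM in both libraries, a ratio of 1.00 (0.638 to 1.56), and over 10% its ratio was 0.469 (0.344 to 0.626). Free RNA held Slc22a8 at 156 CPM in the control library and 4.91 CPM in the other. Its estimated share of this gate's UMIs was 13.5% and 6.51%. The low control value may thus hold free RNA, so equal values do not show equal expression. The part of free RNA in this split was not tested.

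Over every barcode with Havcr1, 759 and 327, 1 of 4 eligible genes was lower in the library labelled haplodeficient, beside 1.01% of all eligible genes. This was Slc22a6, at 133 CPM and 39.8 CPM, a ratio of 0.30 (0.267 to 0.336). Slc22a2 at 0.496 (0.437 to 0.562), Slc22a12 at 0.489 (0.437 to 0.546) and Slc47a1 at 0.787 (0.728 to 0.851) did not pass. Slc22a8 was at 46.0 CPM and 11.6 CPM, Slco1a6 at 70.9 CPM and 22.2 CPM and Slco1a1 at 26.3 CPM and 5.00 CPM, all under the level needed for eligibility. The gate's makeup differed. Barcodes with Havcr1 alone were 441 of 759 in the control library and 226 of 327 in the other. Those of Slc7a13 with Havcr1 were 84 and 13, and they held 923 of 2328 and 65 of 342 Slc22a6 UMIs. Free RNA was an estimated 13.5% of control UMIs with Slc5a12 and Havcr1 and 29.2% with Havcr1 alone. In the other library these shares were 6.51% and 15.1%. The part of makeup and free RNA in the Slc22a6 ratio was not tested. The Slc22a6 log2 ratio was -0.44 up to 10% mt- UMIs and -0.87 over 10%, neither past the rule. With barcodes thinned to 2000 UMIs before gating, the gate held 236 control barcodes and 87 of the other library. There the log2 ratio was 0.056, so its direction turned in this smaller set.

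Outside the proximal tubule the 8 genes were close to absent. In the other named classes of at least 100 barcodes outside the gates, the highest level of any of the 8 was Slc47a1 in descending-thin-limb-like barcodes, at 18.1 CPM (14.2 to 22.8, 291 barcodes) in the control library and 11.8 CPM (9.43 to 14.6, 599 barcodes) in the other. These levels were 17.1% and 52.9% of those in the libraries' free RNA. In thick-ascending-limb-like barcodes, the neighbouring segment, Slc47a1 was at 0.97 and 0.51 CPM. Free RNA of the control library held Slc22a8 at 156 CPM and Slc47a1 at 106 CPM, and that of the other library held them at 4.91 and 22.4 CPM. For all 8 genes the free RNA level was lower in the library labelled haplodeficient.

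Proximal-tubule-like barcodes that no gate took, 789 in the control library at a median of 4588 UMIs and 130 in the other at 7268, held the list too. Slc22a6 was at 528 CPM and 142 CPM, Slc22a8 at 274 CPM and 15.3 CPM, Slc22a12 at 292 CPM and 105 CPM and Slc47a1 at 231 CPM and 161 CPM. Slco1a1 was at 95.9 CPM and 6.31 CPM. All 8 genes had lower values there in the library labelled haplodeficient. No size rule or share over all genes was applied to these values. Among proximal-tubule-like clusters, gated barcodes included, makeup differed between the libraries. The cluster led by Havcr1 held 650 control barcodes and 342 of the other library, and a cluster led by Slc7a13 held 706 and 40. The part of makeup in the lower values was not tested.

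**Figure D4:**
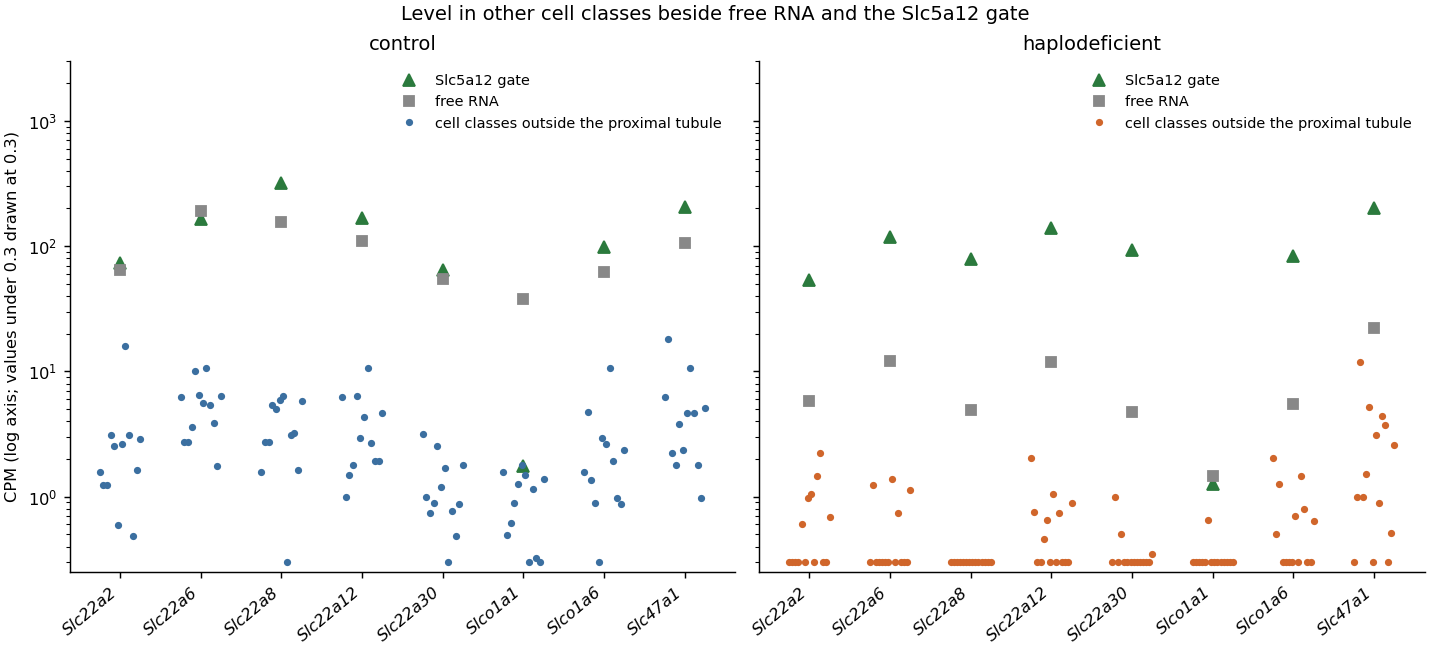
Level of each gene (CPM, log axis) in named cell classes of at least 100 barcodes outside the gates, in free RNA and in the Slc5a12 gate, for both libraries. Every class outside the proximal tubule lies at or below 18.1 CPM, under the free RNA of the same library, and the control library's free RNA of Slc22a6, at 190 CPM, lies above its level in the gate.

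Other transporters of organic ions and the regulators of these genes were read from lists chosen with earlier results of the data known. Of 34 other transporters 13 were eligible in the Slc5a12 gate between the libraries, and 0 passed the rule, with a median log2 ratio of -0.13. Abcc2, which exports conjugated anions into urine, was at 291 CPM and 518 CPM. Of 8 eligible regulators 1 was lower, Ppara, the fatty-acid sensor, at 114 CPM and 53.7 CPM. Hnf4a was at 177 CPM and 185 CPM.

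Between the segments of the control library, 7 of 15 eligible other transporters were higher in the Slc7a13 gate and 1 was lower, beside 5% and 4.33% of all eligible genes. Those higher were Slc22a22, Slc22a28, Slco3a1, Slc13a3, Slc17a3, Slc51a and Slc51b, and Slc17a3, a phosphate and organic anion carrier of the apical membrane, was at 540 CPM against 175 CPM. The lower one was Slc22a23, at 33.7 CPM against 129 CPM. Of 9 eligible regulators 1 was higher, Ghr, the growth hormone receptor, at 1615 CPM against 520 CPM. With Havcr1 added to Slc5a12, 1 of 13 other transporters was lower, Slc22a18, at 89.4 CPM against 237 CPM, and 0 of 9 regulators passed, beside 1.63% of all eligible genes lower. In the Havcr1-alone gate 10 of 12 other transporters were lower and 1, Slco3a1, was higher, and 4 of 8 regulators were lower, Hnf4a among them at 57.2 CPM against 177 CPM. Of all eligible genes 9.39% were lower and 14.2% higher there.

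The genes whose profile was most like that of a member were ranked by Pearson's correlation of log2(CPM + 5) over the 9 gate and library profiles of at least 20 barcodes, among 3352 genes. The profiles share libraries and barcodes of like depth, so the values describe likeness only. Slc22a6 was closest to Slc17a3 (0.992), Ugt3a1 (0.988) and Ldhd (0.983), and Slco1a6 was closest to Slc17a3 (0.995). Slc22a8 was closest to Arl6ip1 (0.987), Slc22a12 to Ugt3a2 (0.996) and Slc22a2 to Adtrp (0.991). Slco1a1 was closest to Acsm3 (0.975) and Slc47a1 to Lactb2 (0.996). Within the list Slc22a6 and Slco1a6 were at 0.992, the neighbours Slc22a6 and Slc22a8 at 0.790, and Slc22a8 and Slco1a1 at 0.299.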

How the data were processed

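The deposited values were raw UMI counts per gene and barcode, unfiltered and not normalized. The authors ran Cell Ranger, whose version 4 is given in the file headers, with the build mm10, per the submitters' processing notes. A cell-hashing library is named in the labels' protocols and was not used here. Barcodes were kept from 500 UMIs and 200 genes upward if mt- genes took no more than 50% of UMIs. Counts were summed per gate and library and scaled to CPM, with exact Poisson intervals for levels, exact conditional binomial intervals for ratios and Clopper-Pearson intervals for shares (scipy 1.17.1). These cover counting error only. Cell classes came from Leiden clusters on 2000 variable genes without the 8 members, 30 components, 15 neighbours and resolution 1 (scanpy 1.11.5, leidenalg 0.10.2), named from marker lists. They gave 51 clusters, of which 7 stayed unnamed. Likely doublets (Scrublet, 0.8% per 1000 barcodes: 715 and 804 barcodes) were left in the gates and removed in an alternative. Of 32285 gene identifiers 32158 (99.6%) matched GENCODE M21. Promoter sequences came from RefSeq. The 8 genes, gates, gene lists, marker lists and the rule for named genes (all 8, the 3 genes most like each, and other transporters and regulators past the size rule) were chosen with earlier results of these data known. The size rule and the summing were checked on simulated counts. Some items of these lists are not reported here. Alternatives are given in the closing section.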

Additional observations from a re-analysis of the deposited data

How the results depend on the processing

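There was 1 library per group, so no replicate could be left out. No paired analysis was possible because each group had 1 library. The counts of genes past the size rule were recomputed under 15 alternatives, of which 3 (CPM without mt- genes, and an mt- share up to 10% or over 10%) were chosen after seeing the data. Of 135 recomputed counts 29 moved by more than 1.5 times. The lower Slc22a8 in the Slc5a12 gate of the library labelled haplodeficient passed the rule in 15 of 15, with log2 ratios from -2.19 to -1.14, and the 6 genes higher in the control Slc7a13 gate passed in 15 of 15.

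Between the libraries, the Slc7a13 gate gave 0 genes, and 5 at 1 or more UMIs per marker, and 1 each with an mt- share up to 25%, as a mean over barcodes, with median-of-ratios scaling and without mt- genes. Over every barcode with Havcr1 the count was 1. It was 3 at 1 or more UMIs, 3 without likely doublets, 3 without mt- genes, 2 in proximal-tubule-like clusters, 2 with median-of-ratios scaling, 2 with 1 CPM added and 4 with eligibility at 10 CPM. It was 0 after thinning to 2000 UMIs and 0 in each mt- range. For these counts thinning came before gating, so the gates held fewer barcodes. The Slc22a6 log2 ratio over every barcode with Havcr1 turned to 0.056 after this thinning. In the library labelled haplodeficient the count of 7 genes higher in the Slc7a13 gate was 3 at 1 or more UMIs and 1 after thinning. With Havcr1 added to Slc5a12, the control count of 1 was 2 as a mean over barcodes, with eligibility at 10 CPM and without mt- genes, and 3 up to 10% mt- UMIs. The other library's count of 2 was 0 at 1 or more UMIs, 0 after thinning and 1, Slco1a6, over 10% mt- UMIs. Up to 10% it stayed at 2, but these were Slc22a30 and Slco1a6. Slc22a8 passed in 11 of 15 alternatives of this comparison. For Havcr1 alone, the control count of 5 was 3 at 3 or more UMIs, and 1 in proximal-tubule-like clusters and over 10% mt- UMIs, where the Slc22a6 log2 ratio turned to 0.46. The other library's count of 3 was 5 as a mean over barcodes and 7 with eligibility at 10 CPM. Apart from the fewer genes or barcodes an alternative keeps, the cause was not tested.

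The gap in the share of Slc5a12-gated barcodes with Slc22a8 was 17.3 percentage points at 1000 UMIs, 32.7 at 2000 and 44.4 without thinning. Control free RNA held Slc22a8 at 156 CPM, and at 108 CPM when read from barcodes of 1 to 50 UMIs. Slc47a1 in control descending-thin-limb-like barcodes was at 18.1 CPM, and at 25.03 CPM at Leiden resolution 2. The Slc7a13 gate of the library labelled haplodeficient is limited by its 12 barcodes.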
